A study of Mus musculus with 4 samples.

Results

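The 8 genes described here belong to the BCL2 family, which sets whether a cell survives or dies through its mitochondria: *Bcl2*, *Bcl2l1*, *Mcl1*, *Bcl2a1b*, *Bcl2a1d*, *Bcl2l11*, *Pmaip1* and *Bax*. They were chosen by symbol and are 8 of the 27998 genes in the files. Each symbol names 1 row. The data are UMI counts (counts of unique molecular identifiers, each marking 1 captured transcript) from 10x Chromium 3′ single-cell libraries of T cells enriched from mouse blood. All mice were C57BL/6, 6 to 8 weeks old at the start of experiments, and carried a subcutaneous MC-38 tumor, a mouse colorectal cancer line, and blood was drawn on day 18 of tumor growth. The study set out to find circulating T cells that respond to checkpoint therapy, and there is 1 library for each of 4 regimens. These are no treatment, anti-PD-L1 (150 μg on days 10, 13 and 17, label PDL1), agonistic anti-OX40 antibody (150 μg) with the oligonucleotide CpG (25 μg) near the tumor on day 7 (label OX40, taken as this regimen), and both together (label PDOX). Libraries are called by these labels. Since the record names 4 blood samples of 4 mice, the mouse, the library and the regimen cannot be told apart.

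BCL2 family proteins act as 3 groups. The guardians BCL2, BCL-XL (gene *Bcl2l1*), MCL1 and A1 (the *Bcl2a1* genes) hold the killers in check, BH3-only proteins such as BIM (*Bcl2l11*) and NOXA (*Pmaip1*) bind and block the guardians, and BAX opens the outer mitochondrial membrane once it is set free. In resting T cells, BCL2 is kept up by interleukin-7 and balances BIM, while A1 and BCL-XL are known as guardians that are switched on when the antigen receptor or costimulatory receptors signal. Neutrophils are short-lived cells known to depend on MCL1.

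A total of 5434 cell barcodes were deposited, and 5299 with at least 200 genes were kept, between 784 and 1559 per library. The deposited libraries held 2392650 to 4969885 UMIs, and the median kept cell 1434.5 to 1618 of genes other than mitochondrial, ribosomal and hemoglobin genes. Hemoglobin made up 7.99% of untreated UMIs and 0.344% to 1.7% in the other libraries, and 16 barcodes occurred in more than 1 library. Cells were gated by UMIs of lineage markers, none of them one of the 8 genes: 1998 CD8 T cells, 838 CD4 T cells, 66 NK cells, 130 B cells, 68 monocytes and 43 neutrophils, while 1679 other T cells held UMIs of neither or of both *Cd4* and the *Cd8* genes. The NK, B and myeloid cells are those left after a T cell enrichment, and their *Cd3d*, *Cd3e* and *Cd3g* UMIs are 0 by the gate. CD8 and CD4 T cells were split by 7 naive-type genes such as *Ccr7* and *Lef1* against 9 effector-type genes such as *S100a4*, *Lgals1* and *Id2*, with a margin of 2 UMIs. This gave 981 naive-type and 751 effector-type CD8 T cells, of which 133 and 51 lay exactly at the margin, and 470 naive-type and 306 effector-type CD4 T cells, of which 38 and 9 did. Effector-type cells made up 21.2%, 23%, 40.5% and 66.2% of CD8 T cells in the untreated, PDL1, OX40 and PDOX libraries. Levels are UMIs per 10000 UMIs of the kept genes, and 95% intervals of single libraries are exact and cover counting error only.

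*Bcl2a1b* and *Bcl2a1d* are copies of one ancestral gene on chromosome 9, and their sequences are shown because they limit how far their counts can be told apart. On GRCm38.p6, *Bcl2a1d* spans chr9:88723288-88731850, the third copy *Bcl2a1a* chr9:88956920-88962416 and *Bcl2a1b* chr9:89199273-89207838. Below are the bases before the annotated starts that line up between both genes (RefSeq, GRCm38.p6), with capitals at bases that differ or have no partner. That of *Bcl2a1b* is chr9:89199023-89199228 on the plus strand and that of *Bcl2a1d* is chr9:88731851-88732050 on the minus strand.
*Bcl2a1b*: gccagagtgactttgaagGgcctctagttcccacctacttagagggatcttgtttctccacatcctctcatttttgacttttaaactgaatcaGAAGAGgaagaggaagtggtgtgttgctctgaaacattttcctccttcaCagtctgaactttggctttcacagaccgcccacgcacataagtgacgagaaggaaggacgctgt
*Bcl2a1d*: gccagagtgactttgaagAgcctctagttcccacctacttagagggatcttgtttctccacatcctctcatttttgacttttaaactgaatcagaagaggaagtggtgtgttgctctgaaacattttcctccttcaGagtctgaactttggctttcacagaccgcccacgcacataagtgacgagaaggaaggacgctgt
Of the 200 bases of *Bcl2a1d*, 198 are identical in *Bcl2a1b*, which carries 6 further bases. The transcripts are as alike: in GENCODE M39, 812 of 819 aligned bases of the main *Bcl2a1b* and *Bcl2a1d* transcripts are identical, and 199 of the last 200, where a 3′ library reads. The counts of the *Bcl2a1* genes are therefore uncertain as to which copy a molecule came from. The NF-κB consensus, searched on both strands of the 250 bases before each start, was in neither promoter, nor in those of *Bcl2*, *Mcl1*, *Bax* and *Bcl2l11*, but in 1 of the 3 *Bcl2l1* promoters, and 7.25% of the 32851 promoters in the table hold it.

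Across gates, *Bcl2* (ENSMUSG00000057329, chr1:106538176-106714290 on GRCm38.p6) was high in lymphocytes and low or unseen in myeloid cells. Over the libraries with at least 10 cells of a gate, its level was 7.26 ± 1.97 UMIs per 10000 in CD8 T cells (SD, n = 4), 4.86 ± 1.39 in CD4 T cells (n = 4), 4.56 ± 1.34 in NK cells (n = 3) and 4.39 ± 0.10 in B cells (n = 3). The ranges of neighbors in this order overlapped among the 4 lymphocyte gates. In monocytes it was 1.63 in the PDL1 and 1.41 in the PDOX library, below every lymphocyte value, and in neutrophils it was 0 in both libraries with enough cells. With edgeR's quasi-likelihood test on UMIs summed per library and gate, with library as a block and Benjamini-Hochberg adjustment over 3069 genes, *Bcl2* was lower in monocytes than in the mean of CD8 and CD4 T cells by a log2 fold change of -1.74 (SE 0.27, adjusted p = 1.2e-05). Not 1 of the 43 neutrophils held a *Bcl2* UMI, which by the rule of 3 counts allows up to 6.98% of such cells to hold a UMI at their median of 880 UMIs, against 53.7% of CD8 T cells at a median of 1689. Against a floor of 3 UMIs over all neutrophils, *Bcl2* was at least 9.61-fold lower than in CD8 T cells and at least 6.12-fold lower than in CD4 T cells (edgeR adjusted p = 4.7e-05 for neutrophils against T cells).

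**Figure D1:**
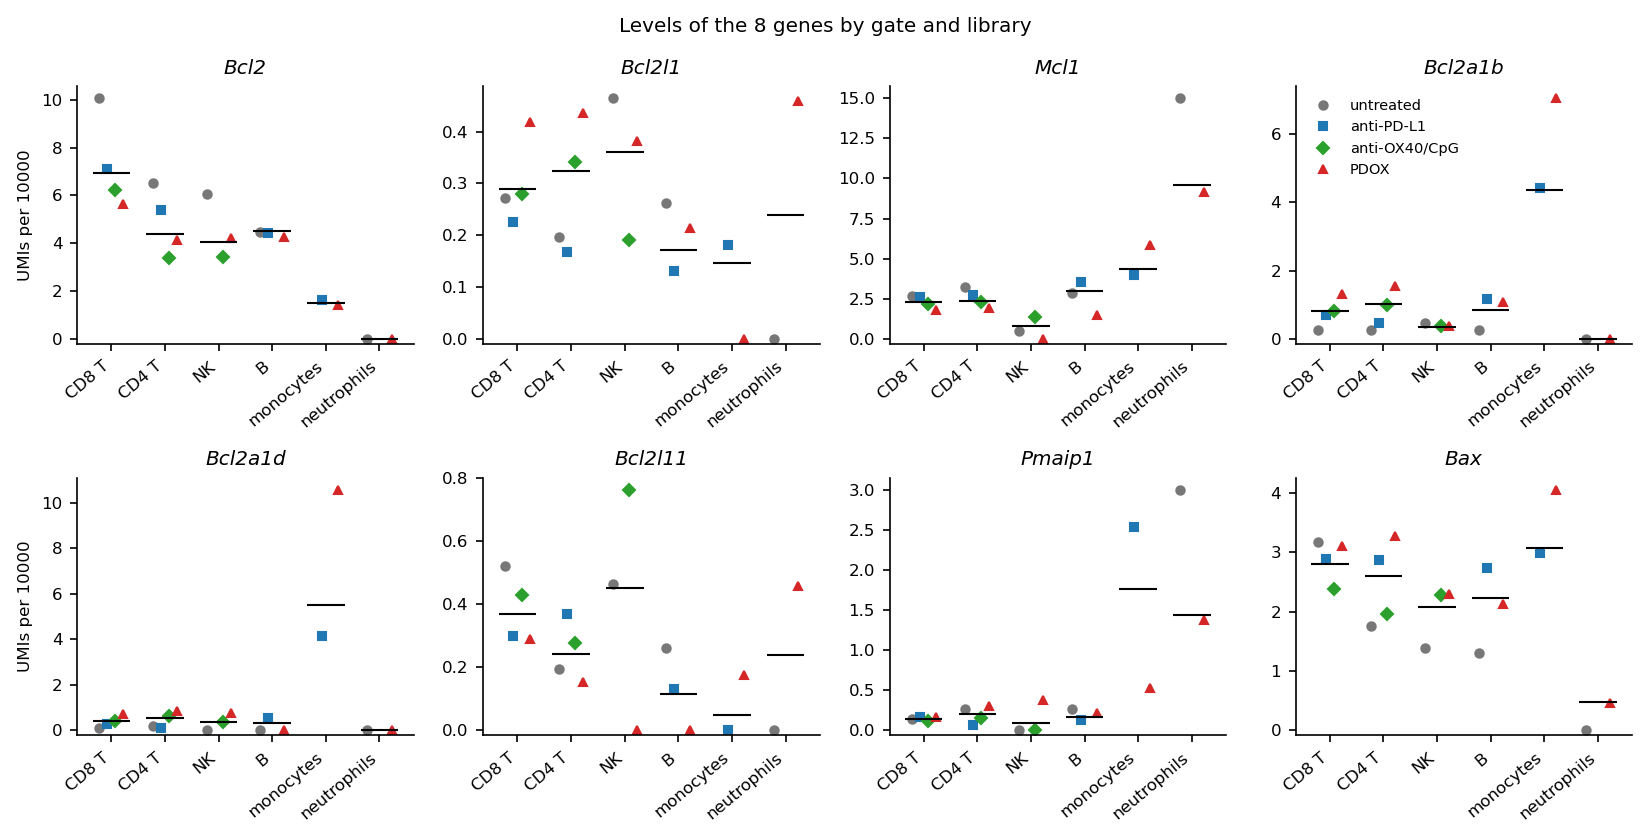
Levels of the 8 genes in UMIs per 10000 (vertical axis, a separate linear scale for each gene) in 6 gates, with 1 point per library that had at least 10 cells of the gate and a black line at the level over all cells of the gate; anti-PD-L1 and anti-OX40/CpG in the legend are the PDL1 and OX40 libraries. *Bcl2* falls from CD8 T cells (6.92 over all cells) to neutrophils (0), while *Mcl1* is highest in neutrophils (9.59) and *Bcl2a1b* and *Bcl2a1d* are highest in monocytes (4.35 and 5.52).

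*Mcl1* (ENSMUSG00000038612, chr3:95656944-95663179), the guardian that neutrophils depend on, ran the other way. Its level was 2.31 ± 0.41 in CD8 T cells, 2.54 ± 0.59 in CD4 T cells (n = 4 each) and 2.63 ± 1.04 in B cells (n = 3), 3 gates whose ranges overlapped. It was 3.98 and 5.82 in the PDL1 and PDOX monocytes and 15.0 and 9.17 in the untreated and PDOX neutrophils. Both myeloid gates lay above every T cell value. The log2 difference from T cells was 1.17 in monocytes (SE 0.25, edgeR adjusted p = 0.00053) and 2.61 in neutrophils (SE 0.37, edgeR adjusted p = 5.7e-06). Without the PDOX library, which leaves 1 monocyte sum, the monocyte difference was 0.75 (adjusted p = 0.056). In NK cells *Mcl1* was 0.46, 1.34 and 0 in the untreated, OX40 and PDOX libraries, from 9 UMIs in all 66 cells, and lower than in T cells (log2 -1.54, SE 0.49, edgeR adjusted p = 0.034). That call was lost without the untreated library (-1.26, adjusted p = 0.17), without the PDOX library (-1.29, adjusted p = 0.058) and under DESeq2 (adjusted p = 0.055).

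The A1 genes stood out in monocytes. *Bcl2a1b* was 4.43 and 7.06 in the PDL1 and PDOX monocytes against 0.25 to 1.31 in the 4 CD8 T sums and 0.26 to 1.54 in the 4 CD4 T sums, and *Bcl2a1d* was 4.16 and 10.6 against 0.13 to 0.73 and 0.10 to 0.85. The groups did not overlap. The log2 difference of *Bcl2a1b* was 2.69 (SE 0.23, edgeR adjusted p = 1.5e-09) and passed under all 12 alternatives run. *Bcl2a1d* reached the filter's level of 1.07 per 10000 in monocytes alone among these gates, so its test is given from the fit with no filter, where the log2 difference was 3.84 (SE 0.27, edgeR adjusted p = 1.2e-44 over 14409 genes). The p-values of the fit with no filter rest on a spread shared over genes, not on each gene's own spread between libraries. *Bcl2a1a* UMIs were almost confined to monocytes, with 65 in 68 monocytes and 4 in 1998 CD8 T cells. Neutrophils held no UMI of *Bcl2a1b* or *Bcl2a1d* in 43 cells, so monocytes were at least 6.05-fold and at least 7.68-fold higher than the neutrophil floor. That floor, 0.719 per 10000, lies close under the *Bcl2a1b* level over all CD8 T cells, 0.803, and above that of *Bcl2a1d*, 0.406, and neither gene passed the test between neutrophils and T cells (edgeR adjusted p = 0.11 and 0.30).

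Of the BH3-only genes, *Pmaip1* was at 0.11 to 0.17 in CD8 T cells and 0.07 to 0.30 in CD4 T cells, and reached 2.53 and 0.53 in the PDL1 and PDOX monocytes and 3.0 and 1.38 in the untreated and PDOX neutrophils. All 4 myeloid sums lay above all T cell sums. However, the untreated and PDOX neutrophil sums held 3 UMIs each, which is the floor, and the PDOX monocyte sum was at the floor as well. Only myeloid sums reached the filter's level, and with no filter the log2 differences were 3.24 in monocytes (SE 0.44, edgeR adjusted p = 5.9e-12) and 3.06 in neutrophils (SE 0.84, edgeR adjusted p = 0.0071), the second from 6 UMIs. The PDL1 library supplied 28 of the 36 monocyte UMIs, and without it the monocyte difference was 1.34 (adjusted p = 0.58, with the filter). Without the untreated or the PDOX library, the neutrophil difference was 3.18 (adjusted p = 0.17) or 3.13 (adjusted p = 0.15). *Bcl2l11* (ENSMUSG00000027381, chr2:128126038-128162547) was rare in every gate, between 0.29 and 0.52 in CD8 T cells and between 0.15 and 0.37 in CD4 T cells, and neither it nor *Bcl2l1* passed the filter on low counts for this test.

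*Bax* (ENSMUSG00000003873, chr7:45461695-45466903), the pore former, was even across lymphocytes, at 2.89 ± 0.36 in CD8 T cells, 2.47 ± 0.73 in CD4 T cells (n = 4 each), 1.99 ± 0.52 in NK cells and 2.06 ± 0.72 in B cells (n = 3 each). Monocytes held 2.98 and 4.06, and their log2 difference from T cells was 0.33 (SE 0.24, edgeR adjusted p = 0.29). Only 2 *Bax* UMIs were seen in 43 neutrophils. The untreated and PDOX sums, which alone entered the test, held 0 and 1 of them, at levels of 0 and 0.46. Both sums lie under the floor of 3 UMIs, so no fitted fold change is given, and the edgeR adjusted p was 0.035. The neutrophil call was lost under DESeq2 (adjusted p = 0.13) and without the untreated (adjusted p = 0.11) or the PDOX library (adjusted p = 0.056). In the filtered comparisons with T cells, where *Bcl2a1d* and *Pmaip1* entered through myeloid sums, 5 of 6 members tested passed in monocytes where 38.7% of all genes did, 4 of 6 in neutrophils where 24.8% did, 1 of 6 in NK cells where 14.3% did and 0 of 6 in B cells where 23.4% did. With no filter, all 8 entered, and 5 passed in monocytes where 10.6% of 14409 genes did, 4 in neutrophils where 6.28% did, 1 in NK cells where 4.35% did and 1 in B cells where 6.74% did. Both monocyte counts include *Bcl2a1b* and *Bcl2a1d* as separate members, although the copy a molecule came from is uncertain. In B cells, *Bcl2* had an unadjusted edgeR p under 0.05 (log2 -0.42, adjusted p = 0.13), and DESeq2, with the filter, called 0 members. The 2 platelet markers summed to 32.7 per 10000 in the PDOX B cells, 4.46 in the untreated and 1.04 in the PDL1 ones, and without the PDOX library 1 member passed. All neutrophil differences lie on a background in which the median gene tested had a log2 difference of -1.34 from T cells, in 2 sums of 12 and 23 cells.

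Within CD4 T cells, effector-type cells held much less *Bcl2* than naive-type cells. The naive-type level was 7.53, 6.23, 5.45 and 8.89 UMIs per 10000 in the untreated, PDL1, OX40 and PDOX libraries, and the effector-type level was 2.1, 1.39 and 2.15 in the 3 treated libraries, while the 7 untreated effector-type cells, at 2.44, were too few to enter the test. Naive and effector values did not overlap. The log2 fold change was -1.78 (SE 0.22, edgeR adjusted p = 5.5e-08) and passed under all 13 alternatives, one of them without the CD4 T cells that held a *Foxp3* UMI, chosen after the data were seen. Of naive-type CD4 T cells 51.1% held a *Bcl2* UMI and of effector-type cells 27.8%, and with each cell thinned to 1000 UMIs, which leaves 388 and 276 cells, the shares were 43.8% and 16.7%, against 0 of 15 thinned neutrophils. The 3 markers of regulatory T cells summed to 0.0865 to 0.514 per 10000 in naive-type and 3.66 to 6.5 in the tested effector-type CD4 T cells, with at least 2 of 3 detected in each library, and without *Foxp3* cells the log2 fold change was -1.67 (edgeR adjusted p = 8.9e-08).

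In CD8 T cells the libraries differed. Naive-type cells held 9.90, 8.52, 6.33 and 9.60 *Bcl2* UMIs per 10000 in the untreated, PDL1, OX40 and PDOX libraries, and effector-type cells 11.2, 4.94, 6.21 and 4.29. The ratio of effector to naive was thus 1.14 (95% interval 0.917 to 1.40) in untreated, 0.580 (0.493 to 0.680) in PDL1, 0.982 (0.838 to 1.15) in OX40 and 0.447 (0.363 to 0.552) in PDOX cells. Only the PDL1 and PDOX intervals lay below 1. Of the 64 untreated effector-type cells, 16 lay exactly at the margin between the states. Over the 4 libraries the log2 fold change was -0.38 (SE 0.14, edgeR adjusted p = 0.053) and missed the threshold. It passed without the untreated library (-0.53, adjusted p = 0.0080) and without the OX40 library (-0.54, adjusted p = 0.028), and was -0.17 (adjusted p = 0.47) without PDOX and -0.12 (adjusted p = 0.59) without the 5% of cells with the most UMIs. Over 13 alternatives 6 passed, with adjusted p from 0.0080 to 0.59.

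The change of *Bcl2* with the effector state differed between CD8 and CD4 T cells. The difference between the log2 changes was 1.40 (SE 0.26, edgeR adjusted p = 0.0019). *Bcl2* was the only one of 7 members tested that passed this test, which 1.05% of all genes passed. Among effector-type cells, CD8 T cells held more *Bcl2* than CD4 T cells in each of the 3 libraries tested (log2 1.72, SE 0.21, edgeR adjusted p = 2.5e-07), and again no other member of 7 passed where 6.38% of genes did. Among naive-type cells, 0 of 7 members differed between CD8 and CD4 T cells in edgeR or DESeq2 where 3.75% of genes did in edgeR, with an unadjusted edgeR p under 0.05 for *Bcl2* alone (log2 0.32, SE 0.15, adjusted p = 0.30). The difference between the changes was 1.15 (adjusted p = 0.11) without the OX40 library and 1.53 (adjusted p = 0.052) with no library term.

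**Figure D2:**
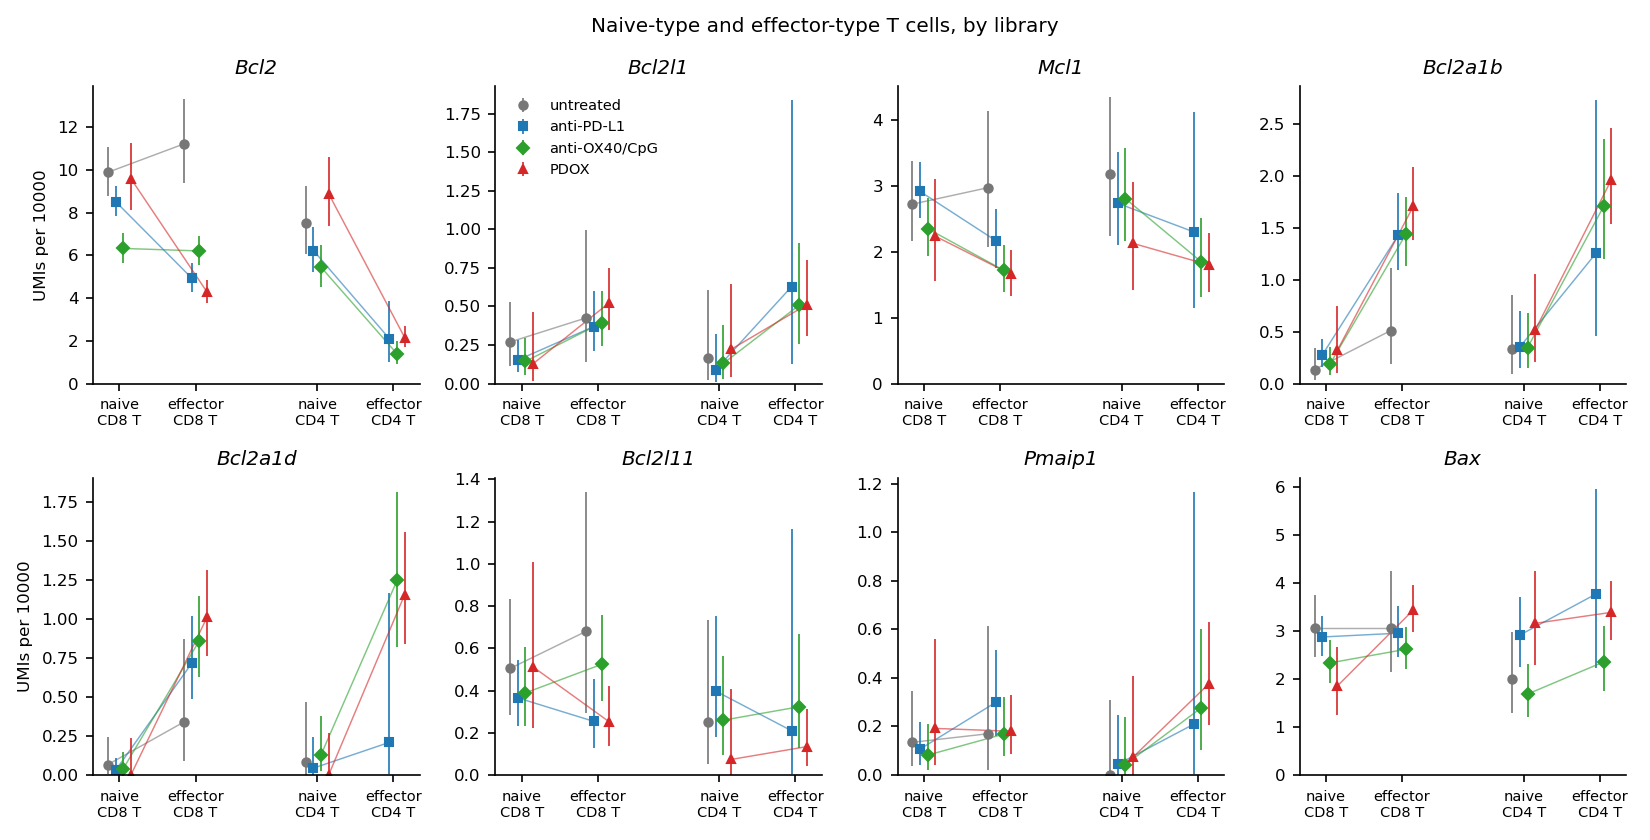
Levels of the 8 genes in UMIs per 10000 (vertical axis, a separate linear scale for each gene) in naive-type and effector-type CD8 and CD4 T cells. Points are libraries with their exact 95% Poisson intervals, lines join the states of a library, and the 7 untreated effector-type CD4 T cells are left out. Effector-type *Bcl2* is the lower value in CD4 T cells of all 3 treated libraries (1.39 to 2.15) and in CD8 T cells of the PDL1 and PDOX libraries, while *Bcl2a1b* and *Bcl2a1d* are higher in effector-type cells of each library shown.

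The A1 genes rose with the effector state in both lineages. Naive-type levels of *Bcl2a1b*, *Bcl2a1d* and *Bcl2l1* lay under the filter's 0.433 per 10000 in all sums but 1, so these genes entered the filtered test through the effector-type sums, and their tests are given from the fit with no filter, in which all 8 members entered among 13865 genes. As above, the p-values of that fit rest on a spread shared over genes. In CD8 T cells, *Bcl2a1b* went from 0.13 to 0.51 UMIs per 10000 in the untreated library, from 0.27 to 1.43 in PDL1, from 0.18 to 1.44 in OX40 and from 0.32 to 1.71 in PDOX. Every effector value lay above every naive value. The log2 fold change of *Bcl2a1b* was 2.59 (SE 0.24, edgeR adjusted p = 9.6e-24), and the share of cells with a UMI was 3.57% of naive-type and 22.1% of effector-type cells, or 1.61% and 10.4% after thinning, against 0 of 43 neutrophils. In CD4 T cells, *Bcl2a1b* went from 0.35 to 1.26 in PDL1, from 0.35 to 1.71 in OX40 and from 0.51 to 1.96 in PDOX (log2 2.03, SE 0.31, edgeR adjusted p = 3.9e-09).

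*Bcl2a1d* was close to absent from naive-type cells, with 6 UMIs in 981 CD8 and 5 UMIs in 470 CD4 T cells, and at most 3 in any library. In effector-type CD8 T cells its level was 0.34, 0.72, 0.86 and 1.01 in the untreated, PDL1, OX40 and PDOX libraries, and in effector-type CD4 T cells 0.21, 1.25 and 1.16 in the treated ones. The naive-type levels, 0 to 0.13, lay below all of these, but the 0.21 of PDL1 CD4 T cells is 1 UMI in 21 cells, against 1 UMI in the naive-type cells of that library. Naive-type sums were at or under the floor of 3 UMIs, so no fitted fold change is given. In PDOX, where naive-type cells held none, effector-type cells were at least 5.26-fold higher in CD8 and at least 5.25-fold higher in CD4 T cells. With no filter, the edgeR adjusted p was 5.4e-23 for CD8 and 3.9e-11 for CD4 T cells.

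In effector-type CD8 T cells, 31.9% of cells with a *Bcl2a1b* UMI also held a *Bcl2a1d* UMI, against 8.89% of the other effector-type cells. Both shares are from counts that were not thinned, and the depth of the cells compared was not matched. Over all effector-type CD8 T cells *Bcl2a1a* had 4 UMIs beside 240 of *Bcl2a1b*, whereas monocytes had 65 beside 89. The summed level of the 5 monocyte markers was 7.44, 7.41, 5.16 and 5.57 per 10000 in naive-type and 12.3, 5.40, 4.64 and 4.70 in effector-type CD8 T cells, with 4 of 5 markers detected in each and *Csf1r* at 0 by the gate. It was higher in effector-type cells in the untreated library alone. The 5 NK markers, of which 0 to 3 were detected in naive-type and 3 or 4 in effector-type CD8 T cells, summed to at most 0.128 and to 0.34 to 1.78 per 10000, and the 3 markers of proliferating cells to at most 0.576 and to 2.26 to 8.03. Their part in these results was not tested.

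*Bcl2l1* (ENSMUSG00000007659, chr2:152758732-152833803), whose product BCL-XL is induced in activated T cells, also rose. In CD8 T cells it went from 0.27 to 0.43 in the untreated, 0.15 to 0.37 in the PDL1, 0.14 to 0.39 in the OX40 and 0.13 to 0.52 UMIs per 10000 in the PDOX library. No effector-type value overlapped a naive-type one, but the untreated interval of the ratio, 0.407 to 5.48, included 1. In CD4 T cells it went from 0.09 to 0.63 in PDL1, 0.13 to 0.51 in OX40 and 0.22 to 0.51 in PDOX. The interval of the CD4 ratio included 1 in PDL1 (0.815 to 85.1) and PDOX (0.682 to 12.2) but not in OX40 (1.03 to 21.9). With no filter, the log2 fold change was 1.37 in CD8 T cells (SE 0.34, edgeR adjusted p = 0.0015). The naive-type CD4 sums held 2 or 3 UMIs each, 10 in all, so no fitted fold change is given for CD4 T cells. Over all libraries their ratio of effector to naive was 3.67 (1.77 to 8.33), and the edgeR adjusted p was 0.0078 with no filter and, with the filter, 0.096 without the OX40 library. Red cells carry *Bcl2l1* as well: the 135 droplets with under 200 genes, 95.7% hemoglobin by UMIs, held 15 of its UMIs, or 11.7 per 10000 of the other genes. The erythroid markers per 10000 were 7.64, 1.37, 3.99 and 1.09 in naive-type and 7.32, 0.923, 3.26 and 1.5 in effector-type CD8 T cells, higher in effector-type cells in PDOX alone.

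*Mcl1*, *Bax* and *Bcl2l11* did not pass in either lineage. *Mcl1* was 2.73, 2.92, 2.35 and 2.24 in naive-type and 2.98, 2.17, 1.72 and 1.66 in effector-type CD8 T cells of the untreated, PDL1, OX40 and PDOX libraries, so the effector-type value was lower in the 3 treated libraries and the ranges overlapped (log2 -0.28, SE 0.13, edgeR adjusted p = 0.14). *Bax* was 1.86 to 3.06 in naive-type and 2.62 to 3.44 in effector-type CD8 T cells (log2 0.27, SE 0.13, edgeR adjusted p = 0.18). In the PDOX library alone its ratio of effector to naive had an interval above 1, at 1.86 (1.25 to 2.84). *Bcl2l11*, which encodes the partner that BCL2 restrains, was 0.37 to 0.51 in naive-type and 0.25 to 0.68 in effector-type CD8 T cells (log2 0.03, SE 0.30, edgeR adjusted p = 0.97). In CD4 T cells the log2 changes were -0.37 for *Mcl1* (SE 0.18, adjusted p = 0.17), 0.35 for *Bax* (SE 0.19, adjusted p = 0.22) and -0.15 for *Bcl2l11* (SE 0.55, adjusted p = 0.91). *Pmaip1* had 18 UMIs in naive-type and 34 in effector-type CD8 T cells and was left out by the filter on low counts. With no filter it did not pass in CD8 (log2 0.91, SE 0.44, edgeR adjusted p = 0.28) and passed in CD4 T cells (edgeR adjusted p = 0.0037). The tested effector-type CD4 sums held 1, 6 and 14 UMIs in the PDL1, OX40 and PDOX libraries, and naive-type CD4 T cells 3 in all. A further 4 UMIs lay in the untreated effector-type CD4 T cells, which did not enter the test.

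With the filter, 3 of 7 members tested passed in CD8 T cells, where 17.2% of 5124 genes did, and 4 of 7 in CD4 T cells, where 16.5% did, and since 3 of them entered through the effector-type sums these counts are given as a record alone. With no filter, 3 of 8 members rose and 1 fell in CD8 T cells, where 7.56% of 13865 genes passed in either direction, and 4 rose and 1 fell in CD4 T cells, where 6.08% did. Those that rose include both *Bcl2a1b* and *Bcl2a1d*, although the copy a molecule came from is uncertain. The member that fell in CD8 T cells was *Bcl2* (log2 -0.38, SE 0.12, edgeR adjusted p = 0.023), whose call depends on the filter.

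**Figure D3:**
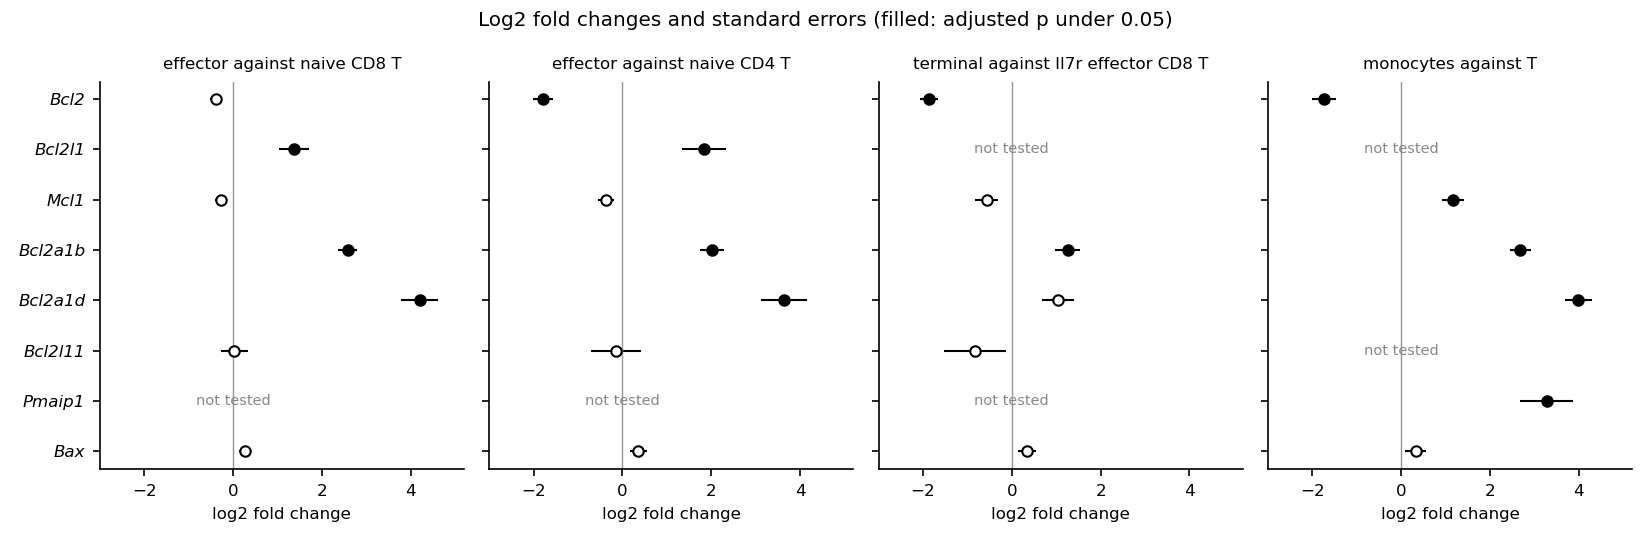
Log2 fold changes of the 8 genes (horizontal axis, with standard errors as bars) in 4 comparisons of UMIs summed per library and gate, with filled points at an edgeR adjusted p under 0.05. *Bcl2a1b* lies at 2.58 and 2.02 in the comparisons of effector-type with naive-type cells, and *Bcl2* lies at -0.38 in CD8, -1.78 in CD4 T cells and -1.87 between CD8 effector subsets. The values are from the filtered fit, into which *Bcl2a1b*, *Bcl2a1d* and *Bcl2l1* entered through effector-type sums, and the *Bcl2a1d* changes and the CD4 *Bcl2l1* change rest on naive-type sums of at most 3 UMIs.

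Effector-type CD8 T cells were then split by *Il7r*, the interleukin-7 receptor that marks memory-type cells, and by *Klrg1*, *Cx3cr1* and *Zeb2*, genes of terminal effector cells. *Il7r* cells held an *Il7r* UMI and none of the terminal-effector genes, and terminal cells held a UMI of those genes and none of *Il7r*. Cells with both or with neither were left out, which left 261 *Il7r* cells and 155 terminal cells of 751. This split was chosen after the data were seen. *Bcl2* was 14.8, 7.79, 9.02 and 8.56 UMIs per 10000 in *Il7r* cells of the untreated, PDL1, OX40 and PDOX libraries, and 2.72, 2.51 and 1.5 in terminal cells of the 3 treated libraries, while the untreated library had only 3 terminal cells. The subsets did not overlap. The log2 fold change, terminal against *Il7r* cells, was -1.87 (SE 0.21, edgeR adjusted p = 3.6e-09). The range of terminal cells overlapped that of effector-type CD4 T cells, and *Il7r* cells lay within or above the 6.33 to 9.90 of naive-type CD8 T cells. Terminal cells made up 4.69% of effector-type CD8 T cells in the untreated, 18.8% in the PDL1, 16.1% in the OX40 and 29.4% in the PDOX library, and *Il7r* cells 51.6%, 37.5%, 36.4% and 28%.

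*Bcl2a1b* was the other member that passed, at 2.01, 1.91 and 2.39 in terminal and 0.17, 1.17, 0.57 and 1.18 in *Il7r* cells, with no overlap (log2 1.26, SE 0.28, edgeR adjusted p = 0.0012). *Bcl2a1d* was 1.06, 1.11 and 1.22 against 0.17 to 0.84, also without overlap (log2 1.04, SE 0.37, edgeR adjusted p = 0.054). *Mcl1* was 1.54, 1.31 and 1.28 in terminal against 1.95 to 3.31 in *Il7r* cells (log2 -0.56, SE 0.26, edgeR adjusted p = 0.16). *Bax* (log2 0.34, SE 0.21, adjusted p = 0.34) and *Bcl2l11* (log2 -0.83, SE 0.70, adjusted p = 0.51) did not pass. In all, 2 of 6 members tested passed where 12.7% of 3666 genes did, in 7 sums that leave 2 residual degrees of freedom. With so few, these p-values rest mostly on a spread shared over genes.

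**Figure D4:**
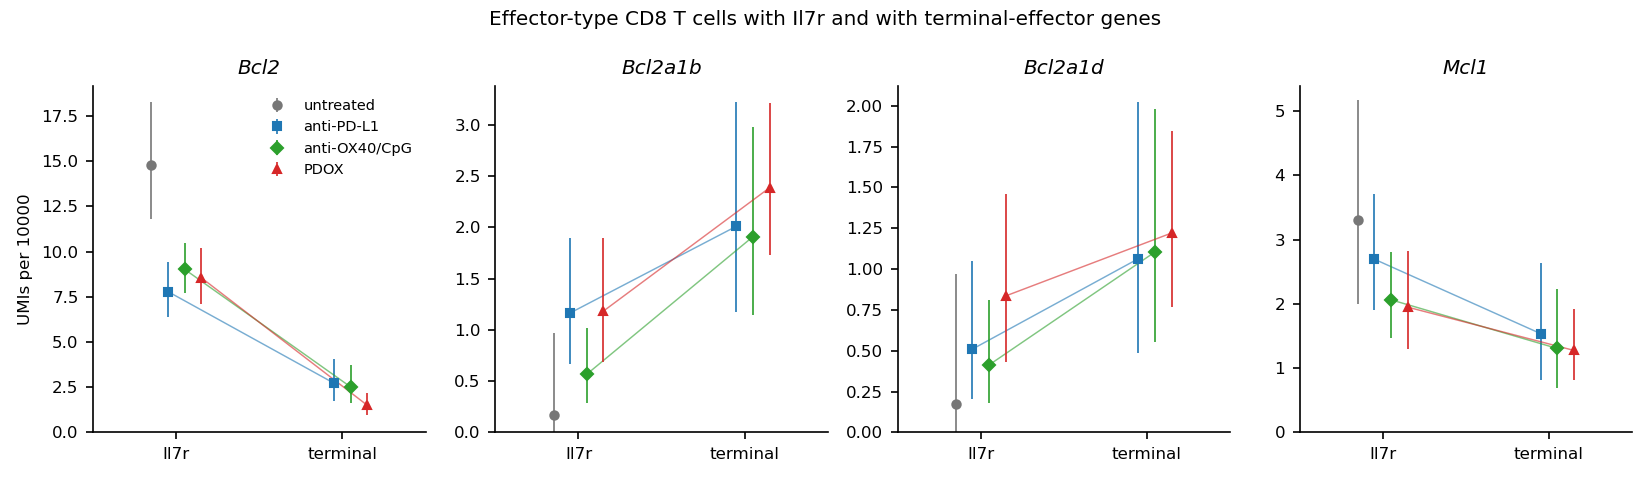
Levels of 4 genes in UMIs per 10000 (vertical axis, linear) in effector-type CD8 T cells with *Il7r* alone and with terminal-effector genes alone. Points are libraries with exact 95% Poisson intervals, lines join the subsets of a library, and the 3 untreated terminal cells are left out. *Bcl2* goes from between 7.79 and 14.8 to between 1.5 and 2.72, and *Bcl2a1b* is highest in terminal cells.

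Between regimens there is 1 library each, so the values below compare libraries and carry no test, and the 3 treated libraries share the same untreated one. Ratios are given for members with at least 50 UMIs in both libraries together. In effector-type CD8 T cells, *Bcl2* was 0.440 times the untreated level in PDL1 (95% interval 0.352 to 0.551), 0.553 times in OX40 (0.451 to 0.682) and 0.382 times in PDOX (0.307 to 0.476). *Bcl2a1b* was 2.80 (1.22 to 7.93), 2.82 (1.24 to 7.93) and 3.35 times (1.49 to 9.37) the untreated level, which rests on 6 UMIs. *Bcl2a1d* had enough UMIs in 2 libraries, at 2.53 times (0.923 to 9.67) in OX40 and 2.97 times (1.10 to 11.3) in PDOX, against 4 untreated UMIs. *Mcl1* was 0.728 (0.489 to 1.11), 0.578 (0.388 to 0.879) and 0.557 times (0.373 to 0.847) that level, and *Bax* 0.964, 0.855 and 1.12 times with all 3 intervals including 1. So *Bcl2* was lower and *Bcl2a1b* higher than untreated in each of the 3 treated libraries. In these cells the monocyte markers summed to 12.3 per 10000 in the untreated and at most 5.40 in the treated libraries, and the erythroid markers to 7.32 and at most 3.26, and terminal cells were a smaller share of the untreated cells, as given above. Their part in the ratios was not tested. Of the 64 untreated effector-type CD8 T cells, 16 lay exactly at the margin between the states. In PDL1 9 of 144 did, in OX40 14 of 261 and in PDOX 12 of 282. A change past 1.5-fold was reached by 2 of 4 members in PDL1, 4 of 5 in OX40 and 4 of 5 in PDOX, where 26.7%, 24.3% and 27.6% of genes with as many UMIs did. *Bcl2a1b* and, where counted, *Bcl2a1d* reached 50 UMIs through the treated libraries, so these counts are given as a record alone.

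In naive-type CD8 T cells, *Bcl2* was 0.639 times the untreated level in OX40 (0.543 to 0.753), against 0.861 (0.746 to 0.995) in PDL1 and 0.970 (0.791 to 1.18) in PDOX. In naive-type CD4 T cells the same library was lowest, at 0.724 times (0.548 to 0.960), against 0.828 (0.631 to 1.09) and 1.18 (0.892 to 1.57). The PDOX library did not share the low naive-type level of the OX40 library in either lineage, and library and regimen cannot be told apart. *Mcl1* lay between 0.670 and 1.07 times the untreated level in these 6 comparisons, each with an interval that included 1. *Bax* was 0.606 times (0.384 to 0.929) in naive-type PDOX CD8 T cells and 1.57 times (0.934 to 2.71) in naive-type PDOX CD4 T cells. Past 1.5-fold were 0, 1 and 1 of 3 members in naive-type CD8 T cells of PDL1, OX40 and PDOX, where 9.61%, 12.3% and 11.9% of genes were, and 0, 0 and 1 of 3 in naive-type CD4 T cells, where 11.2%, 13.3% and 13.3% were.

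Of the other genes of the apoptosis pathway, in 3 lists, 4 of 17 tested passed in CD8 T cells, where 17.2% of all genes did, and 1 of 17 in CD4 T cells, where 16.5% did. Counts of list genes are from the filtered fit, and which sums carried each gene past the filter was not examined. Of 18 other BCL2 family genes, 4 were tested (median log2 0.11 in CD8 and 0.21 in CD4 T cells), and *Bak1*, the other pore former, rose in CD8 T cells (log2 0.79, SE 0.20, edgeR adjusted p = 0.0031) while 0 passed in CD4 T cells. Of 15 genes of the caspase pathway, 7 were tested (medians -0.57 and -0.51), 1 fell in CD8 T cells, *Birc2*, an inhibitor of apoptosis (log2 -0.57, SE 0.20, edgeR adjusted p = 0.046), and 0 passed in CD4 T cells. Of 10 death receptor genes, 6 were tested (medians 0.23 and 0.067): *Fasl*, the ligand with which killer cells trigger death, rose in CD8 (log2 4.39, SE 0.68, edgeR adjusted p = 3.7e-06) and CD4 T cells (log2 2.37, SE 0.71, edgeR adjusted p = 0.017), and the adaptor *Tradd* rose in CD8 T cells (log2 0.69, SE 0.22, edgeR adjusted p = 0.022). Between CD8 effector subsets, *Fasl* (log2 2.26), *Casp8* (1.12) and *Tradd* (1.09) were higher in terminal than in *Il7r* cells, 3 of 6 tested where 12.7% of all genes passed.

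Of 17 receptors and factors upstream of the family, 14 were tested (medians -0.34 in CD8 and 0.029 in CD4 T cells). In CD8 T cells, *Il2rb*, a chain of the interleukin-2 and interleukin-15 receptors, rose (log2 1.77, SE 0.19, edgeR adjusted p = 1.6e-09), and *Il7r* (-0.64), *Il2rg* (-0.49) and *Trp53* (-0.43) fell. In CD4 T cells, *Il2rb* (3.05) and *Tnfrsf4*, which encodes OX40 (2.64), rose, and *Foxo1*, a factor of the resting state, fell (-0.76). In monocytes, 3 of the 4 other family genes tested were higher than in T cells, *Bcl2a1a*, *Bak1* (log2 1.22, edgeR adjusted p = 0.010) and *Bbc3*, which encodes the BH3-only protein PUMA (log2 1.58, edgeR adjusted p = 0.042), where 38.7% of all genes passed. *Bcl2a1a* passed the filter through monocytes alone, at 3.18 per 10000 over all their cells against 0.011 in CD8 T cells, so this count is a record alone. Of 12 upstream genes tested in monocytes, 2 were higher, the NF-κB genes *Rel* (1.72) and *Nfkb1* (1.03), and 5 were lower, *Il7r* (-4.44), *Foxo1* (-2.56), *Il2rb* (-2.08), *Il2rg* (-1.54) and *Trp53* (-1.13), while the NF-κB genes *Nfkb2* (0.62), *Rela* (0.37) and *Relb* (-0.13) did not pass. Of the caspase pathway, *Htra2* (3.46) and *Birc3* (1.35) were higher and *Birc2* (-2.06) lower in monocytes, 3 of 6 tested, and of the death receptors *Tnfrsf1a* (3.97), 1 of 5. Between CD8 effector subsets, 3 of 10 upstream genes tested were lower in terminal cells, *Foxo1* (-1.19), *Traf1* (-0.78) and *Il7r*, which defined the subsets.

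Over 25 sums of a library and gate, and among 1746 genes with at least 500 UMIs, the genes most like *Bcl2* by Pearson correlation of depth-scaled log2 levels were *Pabpc1* (0.933), *Hspe1* (0.929) and *Eef1a1* (0.927), those most like *Mcl1* were *Zfp36* (0.945), *Gtf2a2* (0.855) and *Ddx3x* (0.833), and those most like *Bax* were *Ssr4* (0.917), *Psma7* (0.877) and *Cope* (0.875). *Bcl2a1b* followed *S100a4* (0.775), itself one of the effector-type genes of the gate, *Capg* (0.762) and *Phf11b* (0.732), and *Bcl2l11* followed *Nisch* (0.663), *Cd164* (0.65) and *Cd84* (0.607). The sums share libraries and differ in depth, and the correlations are descriptions.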

How the data were processed

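Blood T cells of 4 libraries were measured by 10x Chromium 3′ single-cell sequencing. The authors ran Cell Ranger 2.1.1 and deposited counts, which are whole numbers of UMIs for each gene in each cell, with no normalization. The submitters' processing notes name mm10 and Seurat 2, and the annotation release is not given in the sources used here. The 8 genes, the gene lists and the tests were chosen with earlier results of these data known. Here, 13 mitochondrial, 102 ribosomal and 10 hemoglobin genes were set aside, and cells with 200 or more of the other genes were kept. No doublet caller was run. Gates required at least 2 UMIs of *Cd3d*, *Cd3e* and *Cd3g* for T cells, with no *Csf1r* and at most 1 B cell UMI. The other gates required no *Cd3* UMI and at least 2 UMIs of 5 NK genes, 3 UMIs of 3 B cell genes, 3 UMIs of 5 monocyte genes including *Csf1r*, or, for neutrophils, 10 UMIs of *S100a8* and *S100a9* and 1 UMI of 4 further genes with no *Csf1r*.

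UMIs were summed per library and gate, and sums of at least 10 cells entered edgeR 4.0.16 in R 4.3.3 (TMM, its filter on low counts, which T cell states pass at 0.433 UMIs per 10000 in 2 sums, quasi-likelihood test, library as block, Benjamini-Hochberg adjustment, called at 0.05). T cell states gave 15 sums of 47726 to 657234 UMIs with 8 residual degrees of freedom, and gates 18 sums of 9993 to 1236227 UMIs with 9. Libraries are the replicates, 1 per regimen, and a standard error is the fold change divided by the root of the F statistic. With no filter, p-values matched a normal distribution of the fold change over its standard error. They thus do not measure each gene's own spread between libraries. The filtered fit also draws each gene's spread toward a spread shared over genes, so its p-values do not rest on the gene's own spread alone. On simulated data for effector-type against naive-type CD8 T cells, 77% of 200 genes among 5124 changed by a log2 fold change of 1 were recovered with 8 false calls, and 99% at 2 with 7. Levels have exact Poisson, shares exact Clopper-Pearson and ratios exact conditional binomial intervals at 95%. Named are all 8 genes, the list genes called in effector-type against naive-type cells, in monocytes and between CD8 effector subsets, and the 3 genes most like each of 5 members. Alternatives were DESeq2 1.42.0 and its size factors, no filter on low counts, all genes kept, at most 2900 genes per cell, no library term, a margin of 4 UMIs, leaving out the 5% of cells with the most UMIs or each library, and thinning to 1000 UMIs. The alternative without *Foxp3* cells and the split of effector-type CD8 T cells were added after the data were seen.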

Additional observations from a re-analysis of the deposited data

Results flagged for a closer look

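The change of *Bcl2* from naive-type to effector-type cells differed between lineages, with a log2 difference of 1.40 between CD8 and CD4 T cells by the interaction term of the fit. The fall was larger in CD4 T cells in each of the 3 treated libraries, with ratios of effector to naive of 0.336, 0.254 and 0.242 in CD4 against 0.580, 0.982 and 0.447 in CD8 T cells for the PDL1, OX40 and PDOX libraries.

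The droplets with under 200 genes, which enter no comparison, held 15 *Bcl2l1* UMIs in 135 droplets, 6 of them in the untreated library, above the 3 UMIs that a count of 0 allows. They held 0 UMIs of *Bcl2*, *Bcl2a1b*, *Bcl2a1d*, *Bcl2l11* and *Pmaip1* and 1 each of *Mcl1* and *Bax*.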

How the results depend on the processing

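Of 126 counts of members called or past 1.5-fold under an alternative, 115 stayed within 1.5 times the reported count. The others were 0 in place of 1 for the lineage difference of the effector change with no library term, 0 in place of 1 for NK cells with DESeq2 size factors and under DESeq2, 1 in place of 0 for B cells without a filter on low counts, and 1 in place of 2 for terminal against *Il7r* cells under DESeq2, which gave *Bcl2a1b* and *Bcl2a1d* no adjusted p. With each library left out in turn, counts ranged from 0 to 1 for the lineage difference, NK and B cells, from 2 to 4 for neutrophils, from 4 to 5 for monocytes, from 3 to 4 for effector against naive CD8 and CD4 T cells each, and from 2 to 3 for terminal cells. Fold changes were recomputed for 32 pairs of a member and a comparison, those not covered being uncalled members between lineages and gates. Among these pairs only *Bcl2l11*, never called, changed sign: in CD8 T cells, from 0.03 to -0.020 under DESeq2 and -0.074 with no library term, and to between -0.26 and 0.18 with 1 library left out, and in CD4 T cells, from -0.15 to between -0.57 and 0.33 with 1 library left out. The cause was not tested. Counts of all genes called moved by over 1.5 times in these cases. For effector against naive CD8 T cells, 880 became 514 under DESeq2 and 579 without PDL1. For CD4 T cells, 843 became 451 without OX40 and 530 without PDOX. For the lineage difference, 54 became 30 under DESeq2, 29 with a margin of 4 UMIs, 19 with no library term, 16 without OX40 and 104 without the cells richest in UMIs. For CD8 against CD4 effector-type cells, 327 became 173 under DESeq2, 176 with no library term and 136 without OX40, and for naive-type cells 192 became 107, 112 and 97, and 123 without PDL1. For terminal cells, 466 became 102 under DESeq2, 287 with no library term, 307 without OX40 and 306 without PDOX. For NK cells, 439 became 191 without OX40, for B cells 719 became 454 without PDL1, for monocytes 1187 became 534 without PDL1 and 771 without the cells richest in UMIs, and for neutrophils 760 became 463 without PDOX and 491 without the untreated library. In the treatment libraries 13 ratios were past 1.5-fold, and 11 to 15 under alternatives. No paired analysis was possible because each regimen has 1 library, and the states of a library were compared within it through the library block, whose removal is named above. Effector-type CD4 T cells are few (21 in PDL1), myeloid cells enter with 2 libraries each, and at 880 UMIs per neutrophil a gene of T cell level below the floor would not be detectable. The alternatives on cells and on genes left out were not run for terminal against *Il7r* cells, and the margin between T cell states does not enter the comparison of gates.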
